A study of Mus musculus with 2 samples.

Results

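6 of the 32285 genes counted in tumor-infiltrating GR1+ cells are described here, namely S100a8, S100a9, S100a6, S100a11, S100a4 and S100a10. They were chosen by name from the family of S100 calcium-binding proteins, of which further genes were also counted. All 6 were found in both libraries. The cells came from tumors of 4T1, a mouse mammary carcinoma line grown in BALB/c mice that the labels give as 6 to 8 weeks old, with 5 mice pooled into each library according to the series records, while the study's own description of these cells gives a smaller number. One library came from tumors of the parental line (4T1P, labelled non-responding, since these tumors resist anti-PD1) and the other from tumors of its mutagenized derivative (4T1M, labelled responding). The derivative was made by treating 4T1P cells with the alkylating mutagen MNNG and is a multiclonal population rather than a single clone. Both tumors descend from 4T1, the hosts were of 1 strain, and the cells were taken as the baseline of the model, with no therapy named in the labels. GR1 is the antibody target shared by Ly6G and Ly6C, so a positive magnetic isolation on GR1 collects neutrophils together with monocytic cells. With 1 library per group there are no replicates and no test between the tumors was possible. All intervals below are 95% intervals that cover counting error only, and a difference between the libraries cannot be told apart from a difference between 2 preparations.

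S100 proteins are small EF-hand proteins that change shape when they bind calcium. S100A8 and S100A9 pair as calprotectin, which makes up much of the soluble protein of the neutrophil cytosol, sequesters zinc and manganese from microbes and signals through TLR4 when released. S100A6 and S100A11 bind annexins and other membrane-associated partners, S100A10 forms a tetramer with annexin A2 and does so without binding calcium itself, and S100A4 binds non-muscle myosin heavy chain and is known for its part in cell motility and metastasis. In neutrophil development S100a8 and S100a9 are made from the late bone marrow precursors onward, while the secondary granule genes Camp, Ngp and Ltf are switched off as the cell matures.

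The 6 genes lie in 2 groups on mouse chromosome 3 (GRCm38, GENCODE annotation), all protein coding. S100a4 spans 90603771 to 90606045 on the plus strand, S100a6 spans 90612882 to 90624181 on the plus strand, S100a8 spans 90668978 to 90670035 on the plus strand, and S100a9 spans 90692632 to 90695721 on the minus strand. S100a11 (93520488 to 93526287) and S100a10 (93555080 to 93564643) lie further along, both on the plus strand. S100a4 overlaps the predicted gene Gm42674 on the same strand, so reads of these genes may have been split or dropped in counting and the S100a4 level is uncertain for that reason. The other 5 genes overlap no annotated gene.

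The start regions of these neighbors are shown because S100a8 with S100a9, and S100a6 with S100a11, had the most alike levels across cell groups, so that their promoters can be set side by side. RefSeq (GRCm38.p6) gave a window of 300 bases, 250 before and 50 from the start onward, for 5 of the 6 genes, with S100a10 not matched. Capitals mark matches, on either strand, to the motif letters TTGCNNAA for C/EBP factors, GAGGAAG for PU.1 (CTTCCTC where it lies on the other strand), TGANTCA for AP-1 and TATAAA for a TATA box.
S100a8 (chr3:90668821-90669120, plus strand): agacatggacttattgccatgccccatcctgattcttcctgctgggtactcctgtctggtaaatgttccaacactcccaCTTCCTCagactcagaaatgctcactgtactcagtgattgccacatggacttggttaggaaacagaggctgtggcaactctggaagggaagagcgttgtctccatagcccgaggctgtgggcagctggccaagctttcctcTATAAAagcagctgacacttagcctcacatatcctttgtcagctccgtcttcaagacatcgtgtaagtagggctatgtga
S100a9 (chr3:90695672-90695971, minus strand): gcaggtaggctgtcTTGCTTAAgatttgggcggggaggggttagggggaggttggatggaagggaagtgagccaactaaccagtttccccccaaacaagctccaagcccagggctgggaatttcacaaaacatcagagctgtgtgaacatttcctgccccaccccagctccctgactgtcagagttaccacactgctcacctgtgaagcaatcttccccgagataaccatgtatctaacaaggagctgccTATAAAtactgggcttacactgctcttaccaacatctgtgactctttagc
S100a6 (chr3:90612644-90612943, plus strand): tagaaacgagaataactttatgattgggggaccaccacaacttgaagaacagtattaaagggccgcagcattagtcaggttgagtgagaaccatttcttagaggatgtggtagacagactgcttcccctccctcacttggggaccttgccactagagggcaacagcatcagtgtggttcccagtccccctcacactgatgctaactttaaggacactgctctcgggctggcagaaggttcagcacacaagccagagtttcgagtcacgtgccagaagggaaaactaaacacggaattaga
S100a11 (chr3:93520246-93520545, plus strand): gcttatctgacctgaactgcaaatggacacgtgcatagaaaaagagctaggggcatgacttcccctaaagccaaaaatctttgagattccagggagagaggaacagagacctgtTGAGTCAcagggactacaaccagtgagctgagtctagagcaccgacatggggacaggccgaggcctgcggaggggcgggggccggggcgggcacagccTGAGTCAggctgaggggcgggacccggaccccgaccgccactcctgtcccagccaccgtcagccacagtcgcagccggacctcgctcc
S100a4 (chr3:90603520-90603819, plus strand): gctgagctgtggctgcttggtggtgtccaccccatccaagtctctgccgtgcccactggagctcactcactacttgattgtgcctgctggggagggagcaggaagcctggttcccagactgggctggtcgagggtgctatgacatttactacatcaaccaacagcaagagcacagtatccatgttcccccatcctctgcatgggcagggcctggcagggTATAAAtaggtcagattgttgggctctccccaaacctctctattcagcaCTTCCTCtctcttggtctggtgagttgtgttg

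Positions in these windows are counted from the RefSeq start base as 0. A C/EBP match was found only in the S100a9 window, at -236, and C/EBP letters occurred in 10.8% of the 32851 promoter windows of the same length. A PU.1 match lay at -171 in S100a8 and at 18 in S100a4, against 13.6% of all windows, and both AP-1 matches, at -136 and -38, were in S100a11, against 7.81% of all windows. TATAAA stood at -30 in S100a8, at -31 in S100a4 and at 0 in S100a9, a motif found in 13.6% of all windows. None of the 4 motifs was found in the S100a6 window. No 2 motifs overlapped in these windows. A match is a description of letters and not of a bound site.

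The 4T1P library held 2947 barcodes with 21855657 UMIs (unique molecular identifiers, 1 per captured transcript) and the 4T1M library 5004 barcodes with 24303957 UMIs, and 5 barcodes occurred in both. After barcodes outside 500 to 5000 detected genes or above 10% mitochondrial UMIs were removed, 1726 and 3461 cells remained, of which 3 barcodes were shared. A cell was called a neutrophil when Csf3r, Cxcr2, G0s2, Il1r2 and Hdc together held at least 0.15% of its UMIs and the C1q genes with Apoe under 0.5%. A cell was called a macrophage when C1qa, C1qb, C1qc, Apoe, Csf1r and Cd68 held at least 0.5% and the 5 neutrophil genes under 0.1%. No S100 gene was among the genes of these rules, but S100 UMIs are part of the total on which each share was taken. The rules gave 663 neutrophils and 641 macrophages in 4T1P, and 1947 and 735 in 4T1M. Neutrophils thus made up 38.4% (36.1% to 40.8%) and 56.3% (54.6% to 57.9%) of retained cells. Neutrophils were shallow, with a median of 3010 and 2847 UMIs per cell, and macrophages deeper at the median, with 9354 and 9861. Depth varied within macrophages, whose lower quartiles were 2124 and 2434 UMIs. Genes that the rules did not use followed the names. All 6 neutrophil check genes, Ly6g and Retnlg among them, were higher in neutrophils in both libraries, and 5 macrophage check genes, Adgre1, Fcgr1, Mrc1, Ctsb and Lyz2, were higher in macrophages. Transcripts of the antigen used for the isolation were sparse, with Ly6g in 14.9% and 14.1% of neutrophils and Ly6c2 in 0.468% and 5.99% of macrophages. The 321 and 665 cells of neither class, beyond 69 and 89 T/NK cells and 32 and 25 B cells named from lymphocyte genes and used as a background for free RNA, were not analysed further except where stated.

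S100a8 and S100a9 were the leading transcripts of tumor neutrophils and were 96.3-fold to 226-fold lower in macrophages. Levels below are in CPM, the UMIs of a gene per 1000000 UMIs of the class. A captured transcript is counted once whatever its length, so levels of different genes stand on 1 scale without a length correction. S100a9 reached 86788 CPM (86432 to 87144) in 4T1P neutrophils and 64568 CPM (64383 to 64753) in 4T1M neutrophils, the highest of all genes in both libraries. S100a8 reached 61613 CPM (61314 to 61914) and 48751.5 CPM (48591 to 48913), the gene of rank 2 and rank 3. The pair together held 14.8% and 11.3% of all neutrophil UMIs. In macrophages S100a8 stood at 285 CPM (273 to 298) in 4T1P and 490.1 CPM (474 to 506) in 4T1M. S100a9 in the same cells stood at 384 CPM (370.1 to 399) and 670.4 CPM (652 to 689). The S100a8 level in neutrophils was thus 216-fold that in macrophages in 4T1P and 99.5-fold in 4T1M, and for S100a9 the folds were 226 and 96.3.

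S100a6 and S100a11 followed the same order of classes at a lower level. S100a6 was at 5229 CPM (5142 to 5317) and 4069.6 CPM (4023 to 4116) in neutrophils, rank 20 and 24 of all genes, and at 442 and 323 CPM in macrophages, an 11.8-fold and 12.6-fold difference. S100a11 was at 2226 CPM (2169 to 2283) and 1555 CPM (1526 to 1584) in neutrophils and at 283 and 225 CPM in macrophages, a 7.88-fold and 6.92-fold difference. S100a4 and S100a10 had the opposite order. S100a10 was at 37.2 CPM (30.2 to 45.3) and 48.4 CPM (43.5 to 53.7) in neutrophils against 396 and 296 CPM in macrophages, 10.6-fold and 6.12-fold higher in macrophages. S100a4 was at 33.0 CPM (26.4 to 40.7) and 22.1 CPM (18.8 to 25.8) in neutrophils against 149 and 65.6 CPM in macrophages, 4.50-fold and 2.96-fold higher in macrophages. Thus 4 members were past 2-fold toward neutrophils and 2 toward macrophages in both libraries. Among genes of at least 100 CPM in either class, 22.4% were at least 2-fold higher in neutrophils and 40.9% at least 2-fold lower in 4T1P, and 24.1% and 37.6% in 4T1M. S100a4 did not reach 100 CPM in neutrophils or macrophages of 4T1M.

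**Figure D1:**
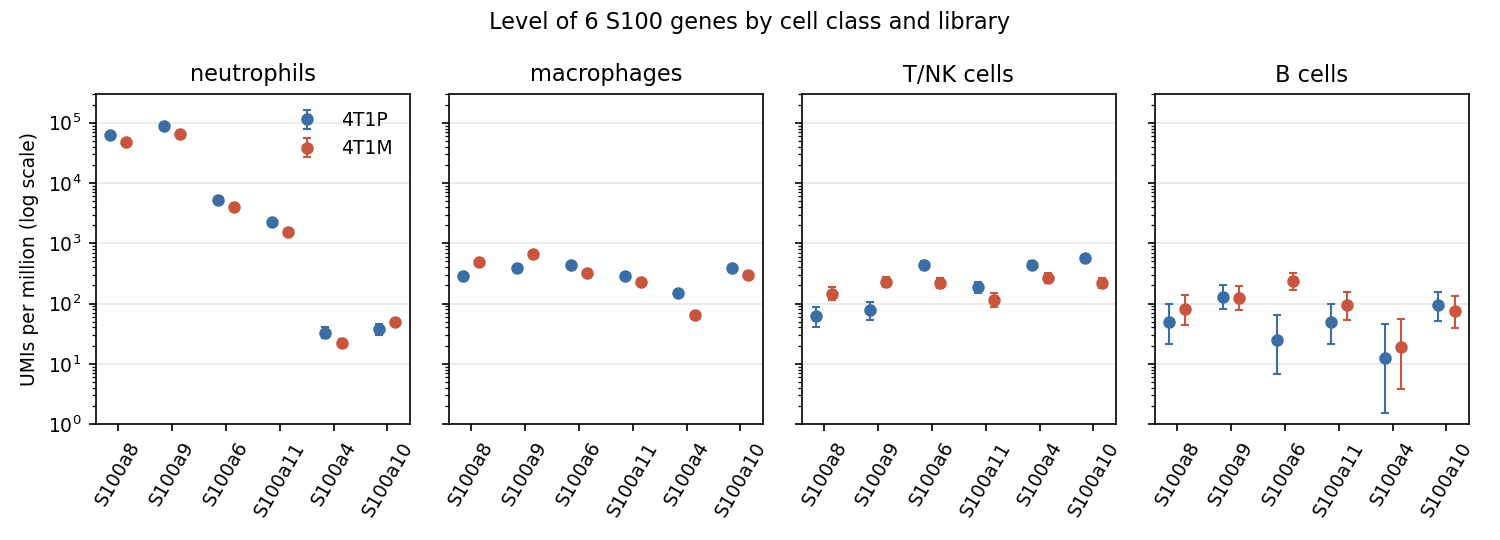
Level of each gene in CPM (vertical axis, log scale) in neutrophils, macrophages, T/NK cells and B cells of 4T1P (blue) and 4T1M (red), with exact Poisson 95% intervals. S100a8 and S100a9 stand near the top of the neutrophil panel and at least 96.3-fold lower in macrophages, while S100a4 and S100a10 are lowest in neutrophils, at 22.1 to 48.4 CPM.

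Within the order of levels in neutrophils, S100a9, S100a8, S100a6 and S100a11 stood apart beyond their counting intervals in both libraries. S100a10 and S100a4 at the low end had overlapping intervals in 4T1P and not in 4T1M. In macrophages the order changed. S100a6 was highest in 4T1P, followed by S100a10 and S100a9 with overlapping intervals, then by S100a8 and S100a11 with overlapping intervals, with S100a4 lowest. In 4T1M macrophages S100a9 and S100a8 led, and S100a6, S100a10, S100a11 and S100a4 followed. The places of S100a8 and S100a9 rest in part on a few cells. Without the 6 and 18 macrophages in which the pair took 1% or more of UMIs, S100a8 was at 157 and 269 CPM. S100a9 was then at 222 and 353 CPM.

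Almost every neutrophil held a transcript of the calprotectin pair. S100a9 was detected in 98.8% and 98.8% of neutrophils of 4T1P and 4T1M and S100a8 in 97.6% and 98.2%, and after each cell was thinned to 1000 UMIs (1 and 6 shallower cells left out) the shares were 97.3% and 97% for S100a9 and 95% and 94.7% for S100a8. S100a6 was found in 84.0% and 81.2%, or 70.8% and 64.7% when thinned, and S100a11 in 88.5% and 81.3%, or 71.5% and 61.1% when thinned. By contrast S100a4 was found in 3.17% and 2.67% of neutrophils and S100a10 in 7.09% and 5.96%. T/NK cells, which do not make calprotectin, give the background of free RNA. S100a9 was seen in 36.2% and 69.7% of them at a median of 5675 and 5537 UMIs, and in 13% and 22.7% when thinned. Macrophages, thinned to the same depth, held an S100a9 UMI in 15.7% (13% to 18.8%) and 30.8% (27.5% to 34.4%) of cells. Both intervals overlapped those of T/NK cells (6.14% to 23.3% and 14.5% to 32.9%), so at this depth the share of macrophages with an S100a9 UMI could not be told from that background. The summed S100a9 level did differ, at 384 and 670.4 CPM in macrophages against 76.7 and 228 CPM in T/NK cells. The tenth of macrophages with the most S100a8 and S100a9 held 79.2% and 74.0% of the UMIs of the pair. For S100a10 the thinned share was 30.8% and 24.8% of macrophages against 3.63% and 2.32% of neutrophils.

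The S100a4 and S100a10 UMIs of the neutrophil class sat in a handful of cells. In 4T1P, 2 of 663 neutrophils held 68 of the 87 S100a4 UMIs (78.2%), and in 4T1M 8 of 1947 held 102 of 160. For S100a10, 3 cells held 49 of 98 UMIs and 17 cells held 224 of 350. These cells, each with 5 or more UMIs of the gene, had totals of 6265 to 30807 UMIs, well above the class medians, and the highest share of the 5 neutrophil genes among them was 0.393% in 4T1P and 0.852% in 4T1M. Without them S100a4 was at 7.33 and 8.14 CPM and S100a10 at 19.0 and 18.1 CPM. Whether these barcodes hold more than 1 cell was not tested, and removing the barcodes of the highest doublet scores left the S100a4 and S100a10 ratios between the libraries at -0.49 and 0.39 on the log2 scale.

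The 4 abundant members did not vary in the same way along the granule genes of the neutrophil. Camp encodes the cathelicidin, Ngp neutrophilic granule protein and Ltf lactoferrin, and their summed share of a cell's UMIs was used as a mark of recent granule synthesis. No UMI of the 3 was found in 544 neutrophils of 4T1P (82.1%) and 1574 of 4T1M (80.8%). A share above 0 and under 0.5% was found in 96 and 330 cells, 0.5% to under 2% in 6 and 15 cells, and 2% or more in 17 and 28 cells (2.56%, interval 1.5% to 4.07%, and 1.44%, interval 0.958% to 2.07%). Depth rose along these bins, from a median of 2856 and 2669 UMIs per cell without a granule UMI to 17599 and 16175 at 2% or more, and the part of depth in what follows was not tested. Elane and Mpo, the primary granule genes of promyelocytes, had 0 UMIs in every 4T1P bin and at most 0.404 CPM in 4T1M. The bins hold only cells that met the neutrophil rule. Among retained cells of no class, 1 of 4T1P and 7 of 4T1M also had a share of 2% or more. In those cells S100a8 was at 129073 and 117111 CPM and S100a6 at 423 and 2388 CPM.

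S100a8 rose over the first 3 granule bins in both libraries and then stayed near that level. In 4T1P it went from 34131 CPM without a granule UMI to 80854, 157527 and 163533 CPM, and in 4T1M from 33007 to 57709.7, 165171 and 145393 CPM. The cells at 2% or more thus held 4.79-fold and 4.40-fold the S100a8 of cells without a granule UMI. S100a9 went from 59043 to 106921, 173407 and 190765 CPM in 4T1P and from 49392 to 72056, 157099 and 167837 CPM in 4T1M, a 3.23-fold and 3.4-fold difference between the ends. S100a8 gained on its partner up to the bin of 0.5% to under 2%. The ratio of S100a8 to S100a9 UMIs was 0.578, 0.756, 0.908 and 0.857 along the 4T1P bins and 0.668, 0.801, 1.05 and 0.866 along the 4T1M bins. In single cells at 2% or more the S100a8 level ran from 118604 to 194141 CPM with a median of 163332 in 4T1P, and from 85966 to 199882 with a median of 154348 in 4T1M. In cells without a granule UMI the median was 26034 CPM in 4T1P and 17764 CPM in 4T1M.

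S100a6 did not rise to the end. It went from 3170.2 CPM without a granule UMI to 10126, then 17610.5 CPM at 0.5% to under 2% and back to 6203 CPM at 2% or more in 4T1P, and through 2913, 6071, 16319.7 and 5339.6 CPM in 4T1M. The highest bin was below the one before it by a log2 ratio of -1.51 (-1.61 to -1.40) in 4T1P and -1.61 (-1.69 to -1.53) in 4T1M. S100a11 had the same shape at a smaller scale, with 1993, 3097, 3373 and 1879 CPM in 4T1P and 1416, 1879, 3008 and 1424 CPM in 4T1M, and a log2 ratio of the highest bin over the one before it of -0.84 (-1.07 to -0.62) and -1.08 (-1.25 to -0.90). The middle bins hold few cells. In the 6 cells of 4T1P, S100a6 ran from 12148 to 41453 CPM, and in the 15 cells of 4T1M from 6938 to 36944 CPM. The 17 and 28 cells at 2% or more had medians of 4068 and 5011 CPM. Their ranges, 1159 to 16903 CPM and 0 to 26465.5 CPM, overlapped those of the middle bin. With edges moved to 0.25%, 1% and 4%, chosen after the data were seen, S100a6 peaked at 16587 CPM in 16 cells and 16747 CPM in 20 cells at 0.25% to under 1% and fell through 12281 and 11275 to 5485 and 4181 CPM at 4% or more. Retnlg, the resistin-like gene of mature neutrophils, followed S100a6 rather than the granule genes. It was at 34796 and 15292 CPM at 0.5% to under 2% and at 5314 and 6930.1 CPM at 2% or more. Its lowest level, 3715 and 2888 CPM, was in cells without a granule UMI.

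S100a4 and S100a10 were low in all 4 bins. S100a4 had 46.2 CPM in cells without a granule UMI of 4T1P and 25.8 CPM in those of 4T1M, and 0 UMIs at 0.5% to under 2% in both, where a count of 0 allows up to 54.1 and 24.9 CPM (exact Poisson upper bound). S100a10 had 50.8 and 49.3 CPM in cells without a granule UMI and 6.38 and 23.1 CPM at 2% or more. The bins above 0.5% rest on 1 to 11 UMIs of S100a10 and do not resolve a trend.

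**Figure D2:**
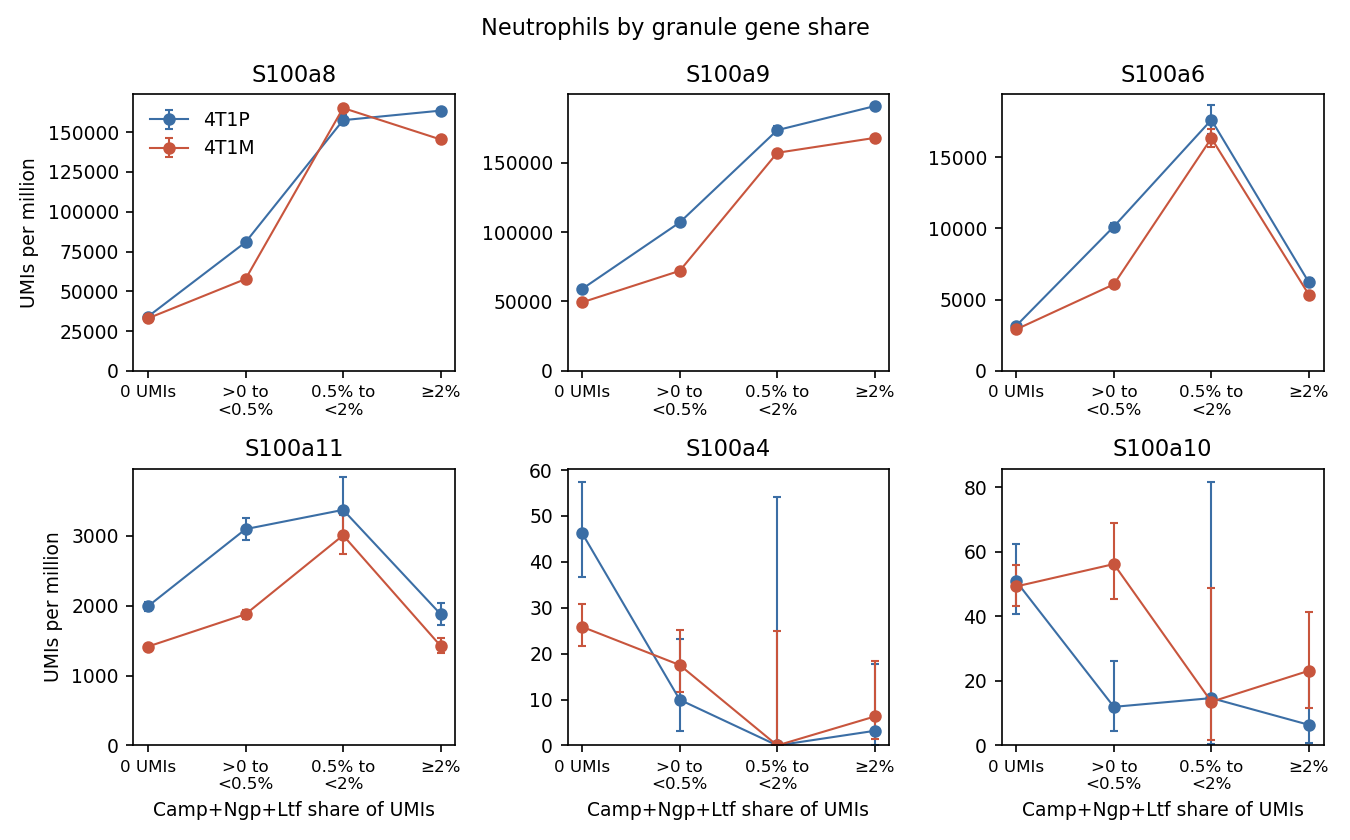
Level of each gene in CPM (vertical axis, linear, own scale per gene) in 4 bins of neutrophils by the summed Camp, Ngp and Ltf share of UMIs (horizontal axis), 4T1P in blue and 4T1M in red with exact Poisson 95% intervals. S100a8 and S100a9 rise to about their final level by the bin of 0.5% to under 2%, whereas S100a6 peaks there at 17610.5 and 16319.7 CPM and drops to 6203 and 5339.6 CPM at 2% or more.

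Over single neutrophils the summed S100a8 and S100a9 share rose with the Camp, Ngp and Ltf share, with a Spearman rho of 0.33 over 663 cells of 4T1P and 0.21 over 1947 cells of 4T1M. The cells share a library and both shares rose with depth (rho of 0.41 and 0.33 between the S100 share and total UMIs), so these are descriptions of each library. Thinning to 1000 UMIs gave 0.34 and 0.20, and leaving the 5 genes out of the denominators gave 0.33 and 0.21. Among cells with at least 1 granule UMI, 119 in 4T1P and 373 in 4T1M, rho was 0.53 and 0.38.

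The 4 abundant members rose and fell together from neutrophil to neutrophil, whereas S100a4 and S100a10 were too sparse to tell. In thinned neutrophils the rho between S100a8 and S100a9 was 0.89 in both libraries. S100a8 with S100a6 gave 0.55 and 0.56, S100a8 with S100a11 gave 0.44 and 0.46, and S100a6 with S100a11 gave 0.36 and 0.37. S100a4 and S100a10 gave 0.16 and 0.20 with each other and between -0.12 and 0.03 with the other 4 genes. At this depth S100a4 had a UMI in 6 of 662 and 19 of 1941 neutrophils, and S100a10 in 24 and 45. Values near 0 on so few cells do not show whether these genes vary with the others. In thinned macrophages the S100a8 with S100a9 value was 0.26 and 0.22, near the 0.32 and 0.24 of S100a6 with S100a4 and the 0.25 and 0.15 of S100a6 with S100a10. Macrophage counts of S100a8 and S100a9 are sparser at this depth, with an S100a8 UMI in 14.9% and 24.2% of thinned cells. The classes are therefore not set against each other. Over cells this sparse such values describe counts and carry no test.

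The calprotectin share differed widely from neutrophil to neutrophil. S100a8 and S100a9 together took a median of 8.83% of a cell's UMIs in 4T1P (5% of cells below 0.401% and 5% above 29.0%, highest 41.6%) and 5.66% in 4T1M (0.265% and 27.3%, highest 48.7%). A share under 1% was seen in 67 cells of 4T1P (10.1%, 7.92% to 12.7%) and 279 of 4T1M (14.3%, 12.8% to 16%), and a share of 20% or more in 99 (14.9%, 12.3% to 17.9%) and 242 (12.4%, 11% to 14%). Cells under 1% held the most of the inflammatory cytokine genes followed here. Il1a was at 1606 and 3421 CPM in them against 139 and 436 CPM in cells of 20% or more, and Ccl3 at 11214 and 15293 CPM against 1373 and 2272 CPM. Cells of 20% or more were the richest in Retnlg (15954 and 14482 CPM) and Camp (10902 and 6729 CPM). Csf3r, a receptor gene of the neutrophil rule, differed less, at 599 and 784 CPM against 512 and 619 CPM. Cxcr2, another receptor gene of that rule, went the other way, at 210 and 191 CPM under 1% against 316 and 382 CPM at 20% or more. Median depth was 2500 and 2430 UMIs under 1% against 6225 and 4660 UMIs at 20% or more.

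**Figure D3:**
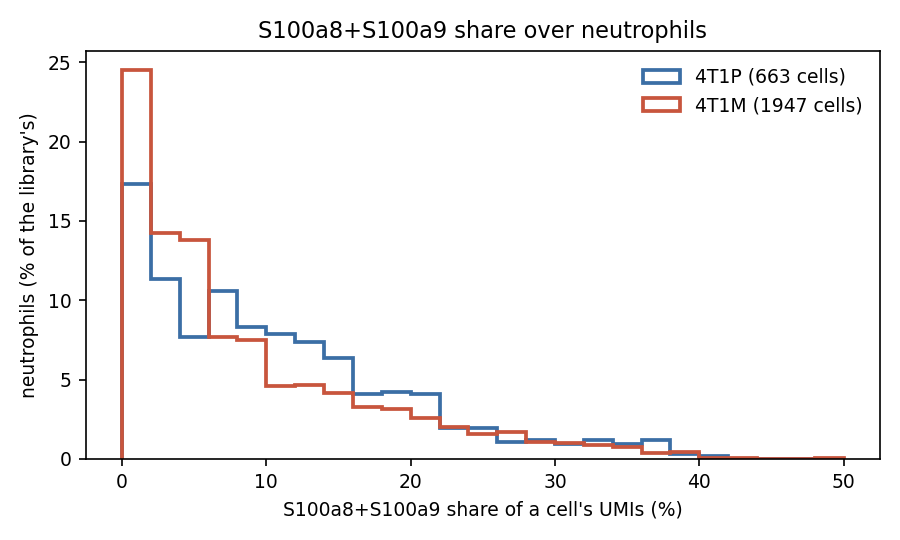
Share of a neutrophil's UMIs taken by S100a8 and S100a9 together (horizontal axis, percent) against the percent of each library's neutrophils in steps of 2 percentage points (vertical axis), 663 cells of 4T1P in blue and 1947 of 4T1M in red. The 4T1M curve is higher below 6% and the 4T1P curve higher between 6% and 22%, around medians of 5.66% and 8.83%.

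The same contrast appeared when neutrophils were ordered by gene lists and the third of cells with the highest summed share was set against the third with the lowest (221 cells each in 4T1P, 649 each in 4T1M). By an inflammatory list (Il1a, Tnf, Il23a, Ccl3, Ccl4, Cxcl2), S100a8 was lower in the highest cells by a log2 ratio of -1.89 in 4T1P and -2.19 in 4T1M. S100a9 gave -1.46 and -1.77, S100a6 -1.42 and -2.24, and S100a11 -0.73 and -1.51. By an interferon-stimulated list (Ifit1, Ifit3, Isg15, Rsad2, Irf7, Ly6e) the ratios were smaller, with -1.21 and -0.90 for S100a8, -0.75 and -0.60 for S100a9, -1.03 and -0.79 for S100a6, and -0.18 and -0.11 for S100a11. S100a10 gave 1.51 and 1.12 by the interferon list and S100a4 gave 2.11 and -0.73, on 10 to 124 UMIs a group, and the few neutrophils with 5 or more UMIs held 50% to 78.2% of all neutrophil UMIs of these genes. By a list called mature here, a name that was not tested (Retnlg, Mmp9, Wfdc17, Ifitm1), all 4 were higher in the highest cells. S100a6 gave the largest value, 2.25 and 2.78, followed by S100a11 with 1.61 and 2.06, S100a8 with 0.90 and 2.04 and S100a9 with 0.83 and 1.78. S100a4 and S100a10 were lower there, with -4.17 and -2.18 for S100a4 and -2.85 and -2.60 for S100a10, values that include the few cells rich in these genes. Because S100a8 and S100a9 alone take up to 48.7% of a cell's UMIs, a share of another list falls when theirs rises, and the part of that in these ratios was not tested.

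Between the tumors, neutrophils of 4T1M held less of 5 of the 6 members on the CPM scale than those of 4T1P, and with total UMIs as the scale no member passed 1.5-fold, the size used in place of a test. The log2 ratio of 4T1M over 4T1P was -0.34 (-0.35 to -0.33) for S100a8, from 162417 and 352558 UMIs. S100a9 gave -0.43 (-0.43 to -0.42), S100a6 -0.36 (-0.39 to -0.33) and S100a11 -0.52 (-0.56 to -0.47). S100a4 gave -0.58 (-0.96 to -0.18) and S100a10 0.38 (0.05 to 0.72). Of the 4 members that reached 100 CPM in a library, 0 were past 1.5-fold, where 5.99% of the 1253 genes tested were at least 1.5-fold higher in 4T1M and 1.04% at least 1.5-fold lower. The median over those genes was 0.04, and S100a8 stood above 6.46% of them, S100a9 above 3.91%, S100a6 above 5.67% and S100a11 above 2.08%. S100a11 passed 1.5-fold when the sums were scaled by edgeR's TMM or DESeq2's size factors (-0.60 with each). S100a4, which was below 100 CPM in both libraries, passed it under both scalings (-0.66 with each), without the calprotectin pair in the total (-0.64) and with a mitochondrial limit of 5% (-0.68). Under either scaling 81 genes were past 1.5-fold, of which 66.7% were higher in 4T1M and the rest lower. With total UMIs these values were 88 genes and 85.2%, so more genes were lower by that size under the scalings. The S100a4 and S100a10 ratios turned to 0.15 (-0.62 to 0.98) and -0.070 (-0.56 to 0.44) without the cells of 5 or more UMIs described above, and their direction in neutrophils rests on those cells.

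The difference was not of 1 size over the granule bins. In neutrophils without a granule UMI the S100a8 ratio was -0.048 (-0.062 to -0.035) and the S100a9 ratio -0.26 (-0.27 to -0.25). In those above 0 and under 0.5% the ratios were -0.49 and -0.57, at 0.5% to under 2% they were 0.068 and -0.14, and at 2% or more -0.17 and -0.18. S100a11 was lower in 4T1M in all 4 bins, with -0.49, -0.72, -0.16 (-0.40 to 0.071) and -0.40. An inflammatory list share of 6% or more was found in 27.3% of 4T1P and 45.4% of 4T1M neutrophils. Within fixed ranges of that share, added after the data were seen, the summed S100a8 and S100a9 ratio was -0.21 under 3%, 0.068 at 3% to under 6% and -0.26 at 6% or more, against -0.39 over all neutrophils. S100a6 gave -0.028 (-0.067 to 0.011), -0.071 and -0.50 in these ranges, and S100a11 -0.19, -0.38 and -0.64. The list share of a cell falls as its S100 share rises, since both are parts of the same total, and the part of class makeup in the ratios was not tested.

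**Figure D4:**
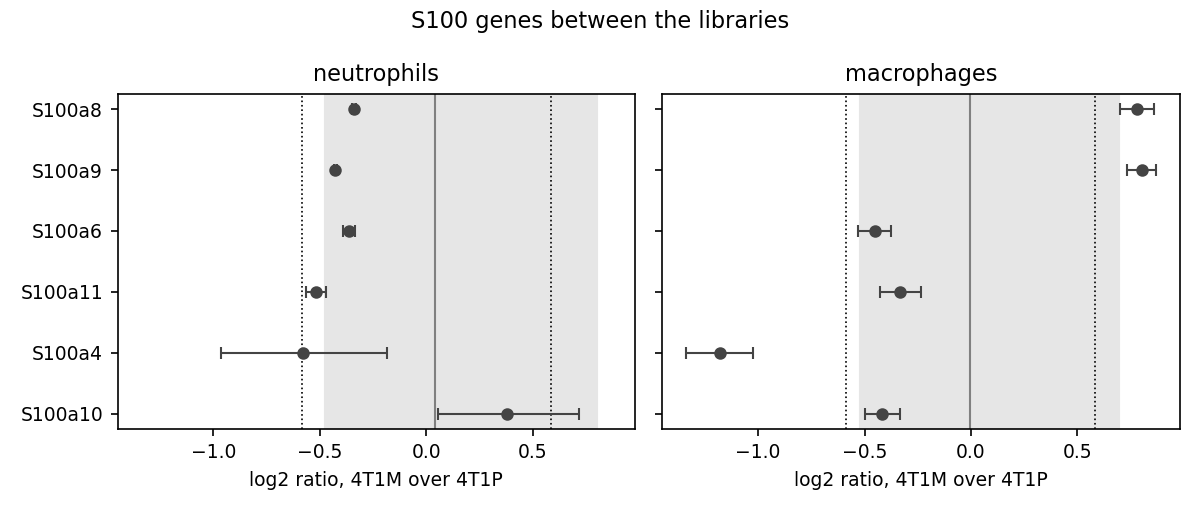
Log2 ratio of 4T1M over 4T1P (horizontal axis) of each gene in neutrophils and in macrophages, with exact conditional 95% intervals for counting error. The grey band holds the central 95% of all genes tested, the grey line their median and the dotted lines mark 1.5-fold. S100a8 and S100a9 lie left of 0 in neutrophils (-0.34 and -0.43) and right of the upper dotted line in macrophages (0.78 and 0.80), and S100a4 lies farthest left in macrophages (-1.18).

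In macrophages the calprotectin pair had the opposite direction. S100a8 was higher in 4T1M by a log2 ratio of 0.78 (0.70 to 0.86) and S100a9 by 0.80 (0.73 to 0.87), both past 1.5-fold. S100a4 was lower in 4T1M, at -1.18 (-1.34 to -1.02), also past 1.5-fold. S100a6 gave -0.45 (-0.53 to -0.38), S100a10 -0.42 (-0.50 to -0.34) and S100a11 -0.33 (-0.43 to -0.24), short of that size. Thus 2 of 6 members were past 1.5-fold higher and 1 of 6 lower, against 3.97% and 2.02% of the 1537 genes tested, whose median was -0.01. S100a4 stood above 0.520% of those genes. The macrophage S100a8 ratio fell to 0.51, short of 1.5-fold, when the macrophage threshold was doubled to 1%.

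The S100a8 and S100a9 UMIs of macrophages were unevenly spread. The tenth of cells with the most held 79.2% of them in 4T1P and 74.0% in 4T1M, with a median of 2 and 3 UMIs per cell. In 6 cells of 4T1P and 18 of 4T1M the pair took 1% or more of UMIs. Without these, S100a8 was at 157 and 269 CPM (ratio 0.78) and S100a9 at 222 and 353 CPM (0.67). The neutrophil check genes did not move together in macrophages. Retnlg was at 39.6 CPM in 4T1P and 49.2 CPM in 4T1M and Acod1 at 225 and 495 CPM, whereas Mmp9 was at 40.2 and 11.3 CPM and Clec4d at 141 and 123 CPM. Cxcl2, which macrophages also make, was at 9616 and 10100.5 CPM, and Ly6g was near 0 at 0.568 and 0.820 CPM. The 5 neutrophil rule genes, which the macrophage rule holds under 0.1% of each cell, were together at 90.5 and 168 CPM and serve as a description only. Among macrophages with 0 UMIs of the 5 rule genes, 397 and 350 cells, the ratio of the summed pair was 0.76, against 0.79 over all macrophages. S100a8 per S100a9 UMI was 0.742 (0.700 to 0.786) and 0.731 (0.700 to 0.763) in macrophages against 0.710 and 0.755 in neutrophils. S100a8 per Retnlg UMI was 7.20 (6.35 to 8.19) and 9.96 (8.94 to 11.1) against 8.83 and 9.84. T/NK cells, used as a background, moved the same way, with S100a8 at 61.4 CPM (40.8 to 88.7) in 4T1P against 146 CPM (115 to 184) in 4T1M, or 1.25 (0.61 to 1.94) on the log2 scale. Their S100a9 was at 76.7 and 228 CPM, or 1.57 (1.01 to 2.16). In B cells, the other background, S100a8 was at 49.7 and 81.4 CPM, or 0.71 (-0.67 to 2.19), from 8 and 13 UMIs. B cell S100a9 was at 130 and 125 CPM, or -0.058 (-1.02 to 0.90), from 21 and 20 UMIs. The macrophage level of S100a8 was 2.17% and 2.45% of that over all retained cells and the T/NK level 0.467% and 0.732%. The part of free neutrophil RNA in the macrophage ratio was not tested.

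Along the C1q genes, which encode the complement component made by mature tissue macrophages, the other 4 members fell. With macrophages parted at C1qa, C1qb and C1qc shares of 0.25% and 1% (71, 373 and 197 cells of 4T1P and 102, 378 and 255 of 4T1M), S100a6 fell from 792 to 448 and 313 CPM in 4T1P and from 947 to 299 and 143 CPM in 4T1M. S100a11 fell from 525 to 278 and 211 CPM and from 407 to 216 and 175 CPM. S100a4 fell from 266 to 155 and 95.5 CPM and from 154 to 67.2 and 32.6 CPM. S100a10 fell from 587 to 395 and 334 CPM and from 514 to 284 and 240.0 CPM. S100a6 had the steepest fall in 4T1M, 6.60-fold between the ends against 2.53-fold in 4T1P. Of 4 monocyte genes, Ly6c2, Plac8 and Vcan were highest in the lowest C1q bin, with 8.78 and 134 CPM for Ly6c2, 328 and 667 CPM for Plac8 and 109.7 and 22.5 CPM for Vcan. Ccr2 changed little, from 514 to 499 CPM in 4T1P and from 385 to 399 CPM in 4T1M. S100a6 differed between the libraries in direction there, with a ratio of 0.26 (0.10 to 0.42) under 0.25% and -1.13 (-1.31 to -0.94) at 1% or more.

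S100a8 and S100a9 along the same bins were set by a few cells. With all macrophages, S100a8 rose from 193 to 250.1 and 389 CPM in 4T1P and fell from 695 to 619 and 227 CPM in 4T1M. S100a9 went from 208 to 323 and 570 CPM in 4T1P and through 681, 881 and 352 CPM in 4T1M. The S100a8 ratio of 4T1M over 4T1P was then 1.85 (1.57 to 2.13) at the lowest C1q share and -0.78 (-0.93 to -0.62) at the highest. That turn rests on 2 macrophages of 4T1P, in 1 of which the pair had 778 UMIs. When macrophages with 1% or more of the pair were left out, a choice made after the data were seen (1, 3 and 2 cells of 4T1P and 4, 14 and 0 of 4T1M), S100a8 was at 163, 163 and 143 CPM in 4T1P and at 340, 282 and 227 CPM in 4T1M. It was then higher in 4T1M in all 3 bins, by 1.06 (0.74 to 1.39), 0.79 (0.65 to 0.93) and 0.67 (0.46 to 0.88), and S100a9 by 1.16 (0.82 to 1.5), 0.60 (0.48 to 0.72) and 0.72 (0.56 to 0.89).

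**Figure D5:**
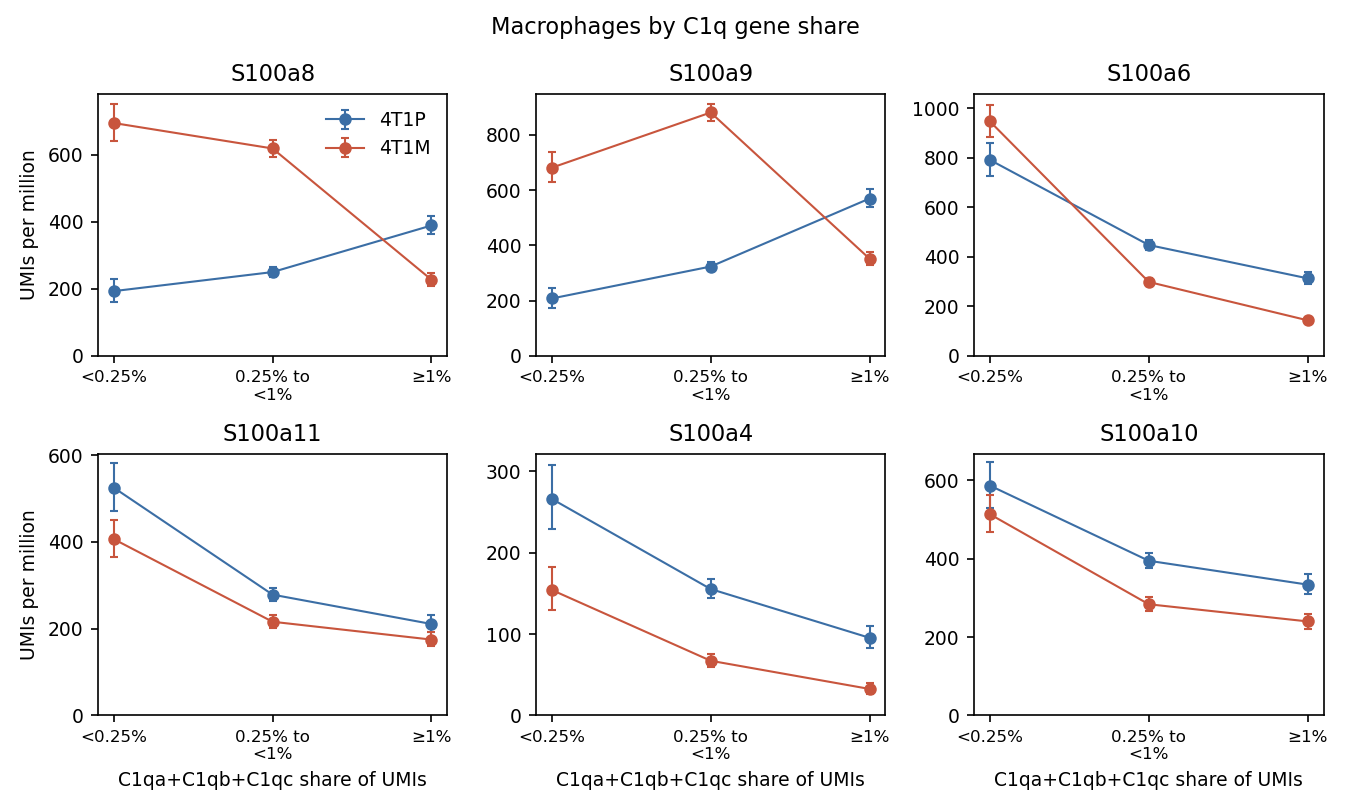
Level of each gene in CPM (vertical axis, linear, own scale per gene) in 3 bins of macrophages by the summed C1qa, C1qb and C1qc share of UMIs (horizontal axis), 4T1P in blue and 4T1M in red with exact Poisson 95% intervals. S100a6, S100a11, S100a4 and S100a10 fall from left to right in both libraries. The S100a8 and S100a9 lines cross, with S100a8 at 193 and 695 CPM on the left and 389 and 227 CPM on the right, a crossing that is lost without 2 cells of 4T1P.

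T/NK cells, though few, were the class with the highest S100a4 level of the 4 named classes. S100a4 was at 438 CPM (380 to 504) in 4T1P and 266 CPM (223 to 316) in 4T1M, and S100a10 at 569.9 CPM (503 to 644) and 222 CPM (182 to 267). Their log2 ratios were -0.72 (-1.05 to -0.39) and -1.36 (-1.70 to -1.03), over 69 and 89 cells. S100a4 had a UMI in 17 and 12 of these cells, so its level there rests on a minority of them. S100a10 had a UMI in 43 and 50. B cells held little of either, with S100a4 at 12.4 and 18.8 CPM from 2 and 3 UMIs. S100a6 in B cells was at 24.9 and 238 CPM, from 4 UMIs in 32 cells and 38 UMIs in 25 cells, with a UMI in 4 and 5 cells.

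Cells just outside the rules differed from those just inside, given here as a description. Neutrophils with 0.15% to under 0.3% of the 5 rule genes held the pair at 168508 and 97552 CPM, and cells with 0.05% to under 0.15% at 25298 and 49955 CPM. Macrophages at 0.5% to under 1% of their rule genes held S100a6 at 673 and 664 CPM, and cells at 0.25% to under 0.5% at 1512 and 1564 CPM. The cells of no class held S100a4 at 519.7 CPM (493 to 548) and 297 CPM (281 to 314). Their intervals overlapped those of T/NK cells (380 to 504 and 223 to 316 CPM) in both libraries.

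Other members of the family were below 100 CPM, with 1 exception in macrophages. All 14 S100a genes annotated on chromosome 3 were in the feature list, and of 11 further S100 genes, S100b, S100g and S100z included, 0 reached 100 CPM in neutrophils. S100a13 came nearest, at 63.4 and 45.9 CPM in neutrophils and at 101 and 94.1 CPM in macrophages, where it was the 1 gene of the 11 to pass. In neutrophils it stood above S100a4 (33.0 and 22.1 CPM), and above S100a10 in 4T1P (37.2 CPM) but not in 4T1M (48.4 CPM). Over all 32285 genes, 1253 reached 100 CPM in neutrophils and 1537 in macrophages, so these counts are not a result about the family.

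Among partners of the S100 proteins, 2 to 6 genes of each list reached 100 CPM in a class. Over all 32285 genes, 1253 did so in neutrophils and 1537 in macrophages. The lists were chosen with earlier results of these data known, so their counts at 100 CPM are descriptive. Of 8 annexins, 4 reached 100 CPM in neutrophils, with a median log2 ratio of -0.45 against 0.04 over all genes tested. Of these 4, 1 was past 1.5-fold lower, against 1.04% of all genes tested, namely Anxa1, whose product restrains neutrophil adhesion and which was at 1766 CPM in 4T1P and 895 CPM in 4T1M (log2 ratio -0.98, -1.03 to -0.93). Anxa11 was just short of that size at -0.58 (-0.79 to -0.37). Anxa2, the partner of S100A10, was at 624 and 529 CPM (-0.24) in neutrophils and at 319 and 242 CPM (-0.40) in macrophages, where 6 of 8 annexins reached 100 CPM, with 0 past 1.5-fold and a median of 0.035. Of 9 genes for receptors and surface partners of S100A8 and S100A9, 4 reached 100 CPM in neutrophils and 3 in macrophages. None of these was past 1.5-fold, nor was any gene of the next 2 lists that reached 100 CPM. Genes under 100 CPM were not counted, and some of them were past that size on few UMIs. Of all genes tested, 5.99% and 1.04% were past it in neutrophils and 3.97% and 2.02% in macrophages. A count of 0 among so few genes is not a result about them. Among the receptors and surface partners Cd14 led at 3151 and 3044 CPM in neutrophils and 1169.8 and 1189 CPM in macrophages. Tlr4 was at 119 and 120.2 CPM in neutrophils. Ager, which encodes the RAGE receptor, had 0 and 8 UMIs in neutrophils. Of 6 genes for partners of S100A4, S100A10 and S100A11, 2 and 4 reached 100 CPM. Ahnak, a scaffold protein that binds the S100A10 and annexin A2 complex, was at 677 and 471 CPM in macrophages (-0.52, -0.59 to -0.46), and Myh9, the myosin bound by S100A4, at 285 and 289 CPM. Of 8 genes for transcription factors of myeloid cells, 4 reached 100 CPM in each class. Cebpb was at 7152 and 6739.9 CPM and Spi1, which encodes PU.1, at 382 and 349 CPM in neutrophils, against 1466 and 1446 CPM and 262 and 269 CPM in macrophages.

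Across the 18 groups made by the neutrophil and macrophage bins, T/NK cells and B cells in both libraries, the genes whose log2(CPM + 10) ran most like that of S100a8, of 3253 genes, were S100a9 (Pearson r of 0.998), Wfdc21 (0.993), Hp (0.991), Lcn2 (0.987) and Retnlg (0.986). For S100a6 they were S100a11 (0.977), Retnlg (0.953), Mmp9 (0.953), Dhrs9 (0.945) and Ostf1 (0.944). S100a4 and S100a10 had an r of 0.91 with each other and between -0.86 and -0.54 with the other 4 members. These values span the classes and do not describe a single class. Within thinned macrophages S100a6 had a rho of 0.32 and 0.24 with S100a4 and of 0.25 and 0.15 with S100a10. S100a11 gave between -0.01 and 0.11 with these 2 genes there. The groups share libraries and depth, and the values are descriptive.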

How the data were processed

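Single-cell RNA-seq of GR1+ cells from 4T1P and 4T1M tumors was analysed, with 1 pooled library per group. The files deposited by the authors hold UMI counts for each gene in each barcode, made with Cell Ranger (4.0.0 per the file headers and the submitters' processing notes) on mm10 and not normalized, and barcodes down to 500 UMIs are listed. Of 21855657 and 24303957 UMIs, 12948585 and 19302483 were in retained cells, which leaves few UMIs for genes of low level. The members, gene lists, classes and thresholds were chosen with earlier results of these data known.

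UMI counts were summed per class and library and scaled to CPM with exact Poisson intervals. Ratios have exact conditional intervals and shares exact binomial (Clopper-Pearson) intervals, at the 95% level. No p-value was computed. 1 macrophage check gene is not reported here. Genes reaching 100 CPM in either library were counted as tested and 1.5-fold served in place of a test. Named are the 6 members, the other S100 genes (S100a2 added later) and the 5 genes most like S100a8 and S100a6. Partner list members were named if they reached 100 CPM and were past 1.5-fold or among the 3 highest in level. Ager and Tlr4 are list members outside that rule, and the state and cytokine genes set beside the members were also named after their values were seen. No doublets were removed, since Scrublet's automatic threshold marked 1 and 0 barcodes. An alternative removed the 69 and 200 barcodes of highest score. Other alternatives were TMM and DESeq2 scaling, other denominators, means over cells, stricter thresholds, a 5% mitochondrial limit, no upper limit on genes and thinning. Scripts were tested on simulated data. Python 3.11.15, scipy 1.17.1, scanpy 1.11.5, R 4.3.3, edgeR 4.0.16 and DESeq2 1.42.0 were used, the last 2 for scaling only. Positions are GRCm38.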

Additional observations from a re-analysis of the deposited data

Results flagged for a closer look

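S100a8 and S100a9 moved opposite ways between the tumors in the 2 cell classes. The log2 ratio of 4T1M over 4T1P for S100a8 was -0.34 in neutrophils and 0.78 in macrophages, and for S100a9 it was -0.43 and 0.80. S100a10 went the other way, with 0.38 in neutrophils and -0.42 in macrophages. With 1 library per group the difference between the classes was not tested, and the S100a10 value in neutrophils rests on a few cells. S100a8 and S100a9 were also higher in 4T1M in T/NK cells, a background for free RNA, by 1.25 and 1.57. In B cells, the other background, the values were 0.71 (-0.67 to 2.19) and -0.058 (-1.02 to 0.90), from 8 to 21 UMIs. The part of free neutrophil RNA in the macrophage ratios was not tested.

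Barcodes that the filter removed also held the calprotectin transcripts. S100a8 and S100a9 together were at 23032 and 31364 CPM in barcodes of under 500 genes (665 in 4T1P and 1022 in 4T1M) and at 28833 and 34394 CPM in those over the mitochondrial limit (420 and 472). In the 136 and 49 barcodes of over 5000 genes they were at 454 and 9769 CPM. Those last barcodes held S100a6 at 2678 and 3120.3 CPM, between the levels of macrophages (442 and 323 CPM) and neutrophils (5229 and 4069.6 CPM). They held S100a4 at 504 and 377 CPM, above both classes. They also held the epithelial keratins Krt8 (489 and 493 CPM) and Krt18 (644 and 609 CPM), which were at 1.09 to 20.9 CPM in neutrophils and macrophages.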

How the results depend on the processing

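Of 108 ratios of single members under 9 alternatives each, 107 kept their direction, the exception being S100a10 in neutrophils as a mean over cells (-0.16). Some alternatives could hardly turn a direction. TMM and DESeq2 scaling moved all members by 1 amount, -0.079 and -0.082 in neutrophils and 0.030 and 0.042 in macrophages. Having no upper limit on genes left the neutrophils at 663 and 1948 cells. Without the neutrophils of 5 or more UMIs, added after seeing the data, S100a4 and S100a10 turned to 0.15 and -0.070, and with doubled thresholds S100a4 was at -0.0037. The summed S100a8 and S100a9 ratio in neutrophils (-0.39) became -0.47 with TMM and with DESeq2 scaling, -0.45 without the pair in the total or with a 5% mitochondrial limit, -0.28 as a mean over cells, -0.31 with doubled thresholds and -0.21 without any C1q or Apoe UMI. Within the ranges of inflammatory share, also added after seeing the data, it was -0.21, 0.068 and -0.26. The median of the other 4 members in neutrophils (-0.44) became -0.52 with both scalings, -0.50 without the pair, -0.23, -0.19 and -0.49 over cells, with doubled thresholds and with the 5% limit. In macrophages the pair (0.79) became 1.10 over cells, 0.57 with doubled thresholds, and 0.69 with the 5% limit and with no upper limit on genes, and the median of the other 4 (-0.44) became -0.60 with doubled thresholds and -0.26 with the 5% limit. In macrophages of the highest C1q share, S100a8 and S100a9 turned from -0.78 and -0.70 to 0.67 and 0.72 without the 2 cells of 4T1P that held 1% or more of the pair, chosen after seeing the data. S100a6 in macrophages passed 1.5-fold with doubled thresholds (-0.69) and without neutrophil UMIs (-0.60), and was -0.093 with the 5% limit. Genes past 1.5-fold rose from 88 to 2719 in neutrophils and from 92 to 1963 in macrophages when all genes of at least 10 UMIs were counted, which admits low counts. The rank correlation with granule genes was 0.53 and 0.38 in cells with a granule UMI. The cause of the other shifts was not tested. No paired analysis was possible because each group is 1 library, and no library could be left out for the same reason.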
